A study of Mus musculus with 27 samples.

Results

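The genes described here are 7 splicing genes whose human counterparts are mutated in forms of retinitis pigmentosa, an inherited degeneration of photoreceptors: Prpf8, Snrnp200, Prpf6, Prpf3, Prpf4, Prpf31 and Rp9. They were chosen by name, as broadly expressed genes with a retinal disease, and they make up 7 of the 38168 features in the table. Messenger RNA levels were followed in whole retina of wild type C57BL/6J mice, with no treatment, at 7 ages in 27 libraries. The ages were embryonic days E14 (n = 3) and E17 (n = 3) and postnatal days P1 (n = 4), P6 (n = 3), P15 (n = 4), P28 (n = 4) and P60 (n = 6).

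Introns are removed by the spliceosome, a machine of small RNAs and proteins that is built anew on each intron. The U4/U6.U5 tri-snRNP is its largest preassembled building block: U4 and U6 RNA enter base-paired to each other, together with U5, and U4 must be unwound and released before the catalytic center forms. Every cell needs these proteins, yet inherited loss or alteration of several of them in people leads mainly to degeneration of rod photoreceptors and, with them, the rest of the outer retina. Rods are born late in mouse development and then become the most abundant cell of the tissue, so the ages compared span the change from a dividing to a photoreceptor-rich retina.

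Within the U5 particle, PRPF8 is the large scaffold that cradles the catalytic center, SNRNP200 (Brr2) is the helicase that unwinds U4 from U6, and PRPF6 is the bridge between U5 and U4/U6. On the U4/U6 side, PRPF3 and PRPF4 bind each other and the U4/U6 duplex, and PRPF31 binds U4 and contacts PRPF6. RP9 (also called PAP-1) is not a core protein of the particle. It binds the kinase PIM1 and PRPF3 and is linked to splicing through them.

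In the GENCODE models of GRCm38, Prpf8 lies on chromosome 11 at 75486816-75509447 (plus strand, 42 exons) and Snrnp200 on chromosome 2 at 127208399-127240451 (plus strand, 45 exons). Prpf6 also lies on chromosome 2, at 181601319-181655660 (plus strand, 21 exons), and Prpf31 on chromosome 7 at 3629985-3642486 (plus strand, 14 exons). Prpf3 lies on chromosome 3 at 95830124-95855885 (minus strand, 16 exons), Prpf4 on chromosome 4 at 62408797-62426990 (plus strand, 14 exons), and Rp9 on chromosome 9 at 22448311-22468348 (minus strand, 6 exons). Exons of Prpf31 share 351 nt, or 11.2% of their length, with Gm15927 on the opposite strand. Whether reads were counted by strand is not given in the sources used here, so reads of these overlapping stretches cannot be assigned to Prpf31 alone.

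The promoters of 2 pairs are shown because the results turn on these pairs. Prpf8 and Snrnp200 moved together over age, and Prpf6 and Prpf31 were the members whose mean over all P60 libraries was near that at E14. Each window holds 250 bases before and 50 bases after a RefSeq start (GRCm38.p6), 5′ to 3′ on the gene's strand, and capitals mark the ETS motif searched, CCGGAAGT, on either strand.
Prpf8, chr11:75486527-75486826, plus strand: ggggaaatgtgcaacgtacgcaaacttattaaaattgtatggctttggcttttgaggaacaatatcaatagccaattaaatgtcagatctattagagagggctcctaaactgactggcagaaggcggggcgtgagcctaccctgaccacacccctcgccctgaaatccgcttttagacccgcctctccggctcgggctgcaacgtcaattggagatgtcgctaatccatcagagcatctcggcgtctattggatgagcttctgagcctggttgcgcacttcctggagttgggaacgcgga
Snrnp200, chr2:127208136-127208435, plus strand: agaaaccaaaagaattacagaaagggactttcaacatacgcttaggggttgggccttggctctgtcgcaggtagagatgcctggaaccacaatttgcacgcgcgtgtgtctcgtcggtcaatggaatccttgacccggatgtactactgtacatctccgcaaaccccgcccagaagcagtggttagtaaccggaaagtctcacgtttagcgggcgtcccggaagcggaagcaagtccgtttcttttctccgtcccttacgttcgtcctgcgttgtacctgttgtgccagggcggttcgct
Prpf6, chr2:181601069-181601368, plus strand: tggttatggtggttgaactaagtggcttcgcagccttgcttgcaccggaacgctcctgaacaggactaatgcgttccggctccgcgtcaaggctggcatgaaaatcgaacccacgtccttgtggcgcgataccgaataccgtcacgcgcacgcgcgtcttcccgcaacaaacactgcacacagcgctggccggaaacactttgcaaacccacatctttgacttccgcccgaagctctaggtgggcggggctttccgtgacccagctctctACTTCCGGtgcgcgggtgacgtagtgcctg
Prpf31, chr7:3629735-3630034, plus strand: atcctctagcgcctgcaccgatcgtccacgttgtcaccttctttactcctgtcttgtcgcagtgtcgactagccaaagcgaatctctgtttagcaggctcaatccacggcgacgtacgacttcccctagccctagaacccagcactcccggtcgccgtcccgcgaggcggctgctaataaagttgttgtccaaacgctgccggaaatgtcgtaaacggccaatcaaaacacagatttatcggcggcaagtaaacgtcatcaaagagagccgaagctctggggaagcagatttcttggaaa

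RefSeq gave 7 windows for 6 of the 7 genes. The ETS motif was in the window of 1 of these genes, Prpf6, as ACTTCCGG, and in 3.89% of all 32851 windows. None of the members' windows held AAGATGGCG (YY1, 1.4% of all windows), the NRF1 motif (0.971%) or TATAAA (the TATA box, 13.6%) on either strand. The members' windows held 16 to 40 CG dinucleotides each. The median over all windows was 7, with quartiles of 3 and 20, so 6 members had promoters on the CG-rich side of that median. These counts describe letters within a fixed window and were not tested.

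Levels are in CPM, the reads of a gene scaled to all reads of its library. Counted reads, recovered from the table, came to 7076646 to 11330762 for a library and 42 to 3976 for a member in a library. The methods describe more reads collected for each library than were counted. Labels give 3 retinas for a library, while the study's methods describe pools of several animals, mixed sexes up to P1 and males later, and at P60 both pools and single mice. The retina markers Rax, Six3, Six6, Crx and Otx2 were each above 1 CPM on average at every age. Summed rod markers were at 17.9 to 29.6 CPM in embryonic libraries and 25546 to 31389 CPM at P60. Summed markers of dividing progenitors were at 3314 to 3927 CPM from E14 to P1, 91.0 to 120 CPM at P6 and 8.13 to 17.4 CPM later. In bulk tissue, fewer cells that express a gene and less RNA of it in each cell cannot be told apart, and the part of these marker shifts in the results was not tested. Lens markers stayed between 1.83 and 7.97 CPM in sum, blood markers between 10.9 and 50.6 CPM, and markers of the retinal pigment epithelium were at 3.69 to 7.67 CPM in embryonic libraries and 16.1 to 61.8 CPM from P15 on.

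The P60 libraries were not alike. Over all features, replicates 3, 4 and 5 correlated less with P28 libraries (mean r 0.946 to 0.966) than with the other P60 libraries (0.958 to 0.971), and replicates 1, 2 and 6 more. By the chi-square of recovered reads per degree of freedom, replicates 1 and 2 were near each other (3.13), and replicate 6 was nearer to 4 (4.37) and 5 (5.08) than to 1 (7.63) or 2 (8.12), so replicate 6 lay between. Prpf6 was at 80.9 to 94.2 CPM in these 3 libraries and 54.6 to 72.1 CPM in the others, and Prpf31 at 46.6 to 48.6 against 30.3 to 40.1 CPM. Calls for genes that include P60 are therefore also given without these 3 libraries, and without replicate 6 as well, where the call changed. For ratios between members, libraries were left out only 1 at a time.

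**Figure D1:**
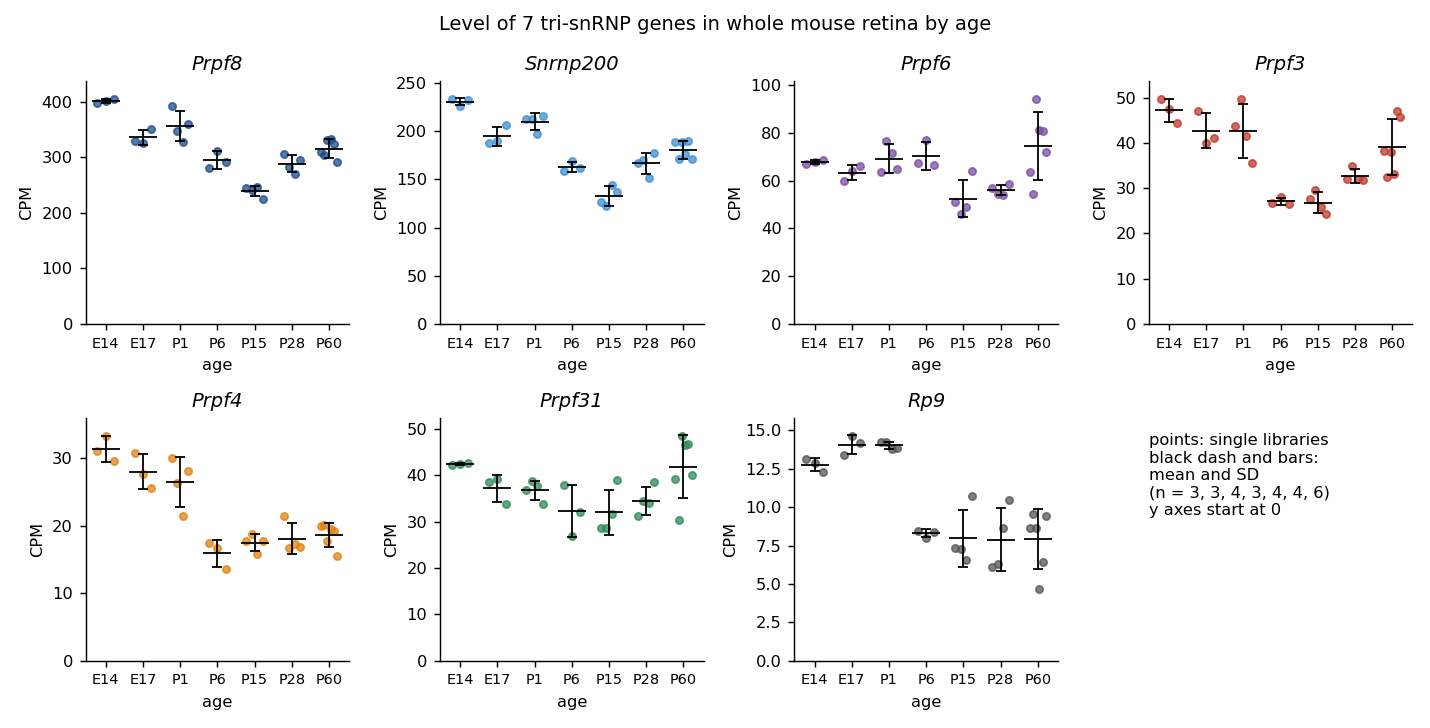
Level of each of the 7 genes in every library, with age on the x axis and CPM on the y axis (linear, starting at 0). Points are libraries, dashes are means of an age and bars are SD. Prpf8 fell from 402 CPM at E14 to 240 CPM at P15 on average, and its E14 libraries lay above those of all other ages.

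All 7 genes varied over age (limma's F test, called at an adjusted p under 0.05), as did 83% of all features tested. From the embryonic to the mature retina, 5 of the 7 had a lower level and none a higher one, against 40.4% of all features lower and 35% higher. The lowest mean was at P15 for Prpf8, Snrnp200, Prpf6, Prpf3 and Prpf31, at P6 for Prpf4 and at P28 for Rp9. The span between the lowest and highest age was modest, from 1.33-fold for Prpf31 to 1.97-fold for Prpf4. Prpf8 and Snrnp200 had the most abundant messages. Per kb of the GENCODE transcript, mean levels at E14 were 54.0 CPM per kb for Prpf8, 34.2 for Snrnp200, 22.2 for Prpf6, 16.1 for Prpf3, 13.5 for Prpf31, 11.3 for Rp9 and 6.00 for Prpf4. Prpf8, Snrnp200 and Prpf6 led in this order and Prpf4 was last at all 7 ages. The annotation behind the table is not given in the sources used here, so the per-length levels are approximate.

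Among U5 genes, Prpf8 was highest at E14, fell in steps to P15 and was higher again at P28. Its level was 398, 402 and 405 CPM in the E14 libraries, 329.5, 326 and 351 CPM at E17, and 391.7, 347, 328 and 360.2 CPM at P1. It was 281, 312 and 292 CPM at P6 and 245, 242, 246 and 225 CPM at P15. It was 306, 283, 270.5 and 295 CPM at P28 and ran from 290.8 through a median of 317 to 334 CPM at P60. The E14 and P15 libraries overlapped with no other age, at the top and bottom of the range, whereas P6, P28 and P60 overlapped. Prpf8 fell between E14 and E17 (log2 difference -0.26 ± 0.07 SE, adjusted p = 0.012), between P1 and P6 (-0.27 ± 0.07, adjusted p = 0.0012) and between P6 and P15 (-0.30 ± 0.07, adjusted p = 0.00055), by limma on log2(CPM + 1). It then rose between P15 and P28 (0.27 ± 0.06, adjusted p = 0.0096). At P60 its mean was 78.6% of that at E14, after 59.7% at P15.

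Snrnp200, the helicase gene, followed the same course at a lower level. Its level was 233, 226 and 232 CPM at E14, 188, 189.99 and 206 CPM at E17, and 213, 213, 197 and 216 CPM at P1. It was 159, 169 and 162 CPM at P6, 127, 122, 144 and 137 CPM at P15, 167, 171, 151 and 177 CPM at P28, and from 171 through a median of 182 to 189.96 CPM at P60. As for Prpf8, the E14 libraries were above and the P15 libraries below those of every other age. It fell between E14 and E17 (-0.24 ± 0.07 SE, adjusted p = 0.029), P1 and P6 (-0.36 ± 0.07, adjusted p = 9.7e-05) and P6 and P15 (-0.30 ± 0.07, adjusted p = 0.0011), and rose between P15 and P28 (0.33 ± 0.06, adjusted p = 0.0024). The call between E14 and E17 was lost for Snrnp200 without any single E14 library or without E17 replicate 1 or 2 (adjusted p up to 0.13), and for Prpf8 without E17 replicate 1 or 2 (adjusted p = 0.054 and 0.065). The rise of Prpf8 to P28 missed the threshold without P28 replicate 1 (0.24, adjusted p = 0.051). The symbol Snrnp200 has a second, minor entry with age means of 9.46 to 13.6 CPM, which was not called over age (adjusted p = 0.082).

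Prpf6, the gene of the bridge protein, stayed near its early level until P6 and had its highest mean over all libraries at P60. Over P60 replicates 1, 2 and 6 alone its mean was 63.5 CPM, below the means at E14 (67.8), P1 (69.2) and P6 (70.3). It was at 66.8, 67.8 and 68.6 CPM at E14, 60.01, 63.9 and 66.3 CPM at E17, 63.8, 76.6, 71.6 and 64.9 CPM at P1, and 67.4, 77.1 and 66.5 CPM at P6. It was at 51.3, 46.1, 48.9 and 63.9 CPM at P15, 57.02, 54.3, 54.1 and 58.6 CPM at P28, and ran from 54.6 through a median of 76.5 to 94.2 CPM at P60. The P15 libraries were all below those of P6, and the P60 libraries spread over almost the whole range of the gene. Prpf6 fell between P6 and P15 (-0.42 ± 0.12 SE, adjusted p = 0.0087) and rose between P28 and P60 (0.38 ± 0.11, adjusted p = 0.02). The fall missed the threshold without P6 replicate 2 (-0.35, adjusted p = 0.064) and with another scaling or a count test (-0.35, adjusted p = 0.052 to 0.07). The rise missed it without P60 replicates 3, 4 and 5 (0.17, adjusted p = 0.48), without replicates 3 to 6 (0.07, adjusted p = 0.84), without P28 replicate 2 or 3 (adjusted p = 0.059 and 0.054) and with only P28 and P60 in the fit (adjusted p = 0.17).

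Among the genes of U4/U6 proteins, Prpf3 and Prpf4 dropped most clearly between P1 and P6. Prpf3 was at 49.6, 47.5 and 44.4 CPM at E14, 47.0, 39.97 and 41.0 CPM at E17, and 43.8, 49.7, 41.5 and 35.5 CPM at P1. It was at 26.7, 28.01 and 26.5 CPM at P6, 27.6, 29.5, 25.9 and 24.2 CPM at P15, 32.0, 35.0, 31.9 and 31.8 CPM at P28, and from 32.4 through a median of 38.03 to 47.0 CPM at P60. Every library of P6 and P15 was below every library of the other ages. Prpf3 fell between P1 and P6 (-0.63 ± 0.12 SE, adjusted p = 6.9e-05), and its mean at P60 was 82.8% of that at E14.

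Prpf4 dropped at the same age and stayed low. It was at 31.1, 33.3 and 29.6 CPM at E14, 30.8, 27.6 and 25.6 CPM at E17, and 30.05, 26.4, 21.4 and 28.03 CPM at P1. It was at 17.4, 16.8 and 13.7 CPM at P6, 17.7, 18.8, 15.8 and 17.7 CPM at P15, 21.5, 16.7, 17.3 and 16.8 CPM at P28, and from 15.6 through a median of 19.3 to 20.1 CPM at P60. The 6 embryonic libraries were all above the 17 libraries from P6 on. Prpf4 fell between P1 and P6 (-0.69 ± 0.13 SE, adjusted p = 3.5e-05), no other step was called, and its mean was 50.8% of the E14 mean at P6 and 59.6% at P60.

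Prpf31, the gene of the U4-binding protein that contacts PRPF6, had the smallest span between its lowest and highest age means of the 7. It was at 42.3, 42.5 and 42.6 CPM at E14, 38.5, 39.2 and 33.9 CPM at E17, 36.9, 38.7, 37.7 and 33.8 CPM at P1, and 38.01, 26.9 and 32.0 CPM at P6. It was at 28.6, 28.7, 31.8 and 38.9 CPM at P15, 31.2, 34.4, 34.0 and 38.6 CPM at P28, and from 30.3 through a median of 43.3 to 48.6 CPM at P60. Ordered by mean, each age overlapped with the next, and no step between neighboring ages was called. Even so, the E14 libraries (42.3 to 42.6 CPM) were above every library from E17 to P28. They were also above P60 replicates 1, 2 and 6 (up to 40.1 CPM), and only P60 replicates 3, 4 and 5 were higher (46.6 to 48.6 CPM). Its P60 mean of 41.9 CPM, near the E14 mean of 42.5 CPM, was 36.5 CPM over P60 replicates 1, 2 and 6 alone. The F test over all ages gave an adjusted p of 0.015.

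Rp9, the member with the lowest CPM before division by length, fell once, between P1 and P6. It was at 13.1, 12.9 and 12.3 CPM at E14, 13.4, 14.6 and 14.2 CPM at E17, and 14.2, 14.2, 13.8 and 13.8 CPM at P1. It was at 8.48, 8.003 and 8.41 CPM at P6, 7.36, 7.24, 6.57 and 10.7 CPM at P15, 6.13, 6.32, 8.66 and 10.4 CPM at P28, and from 4.64 through a median of 8.66 to 9.58 CPM at P60. All 10 libraries up to P1 were above the 17 libraries from P6 on. The step from P1 to P6 was -0.69 ± 0.19 (SE, adjusted p = 0.0036). The lowest P60 value rests on 42 reads.

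**Figure D2:**
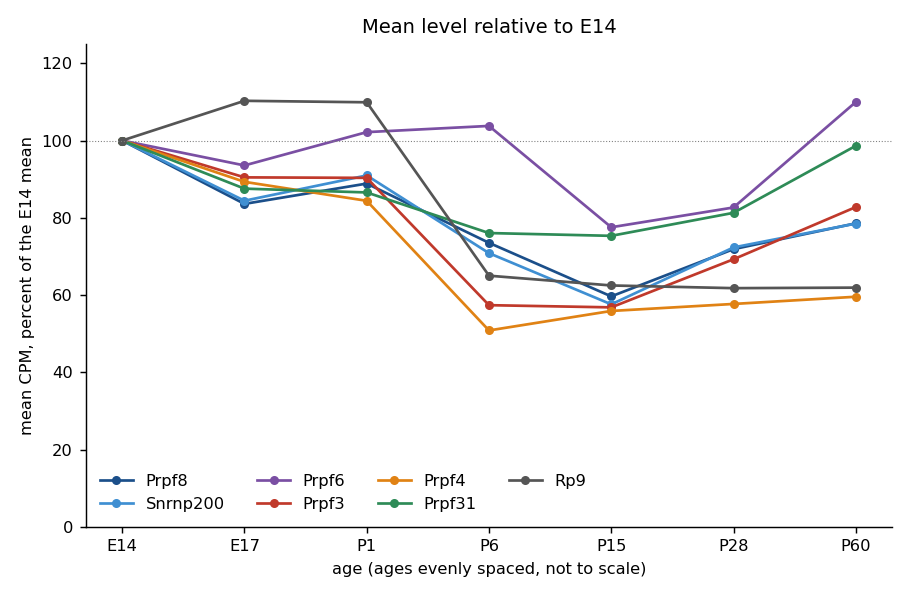
Mean level of each gene as a percentage of its E14 mean (y axis), with the 7 ages evenly spaced on the x axis and lines joining the means. Over all P60 libraries, Prpf6 (110%) and Prpf31 (98.6%) were near the E14 mean, Prpf4 (59.6%) and Rp9 (61.9%) were well below it, and Prpf8, Snrnp200 and Prpf3 lay between.

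The embryonic retina (E14 and E17, 6 libraries) was then set against the mature retina (P15, P28 and P60, 14 libraries) to ask which members differ before and after rods fill the tissue. The log2 differences by limma weigh each age of a group equally. Mean CPM and the main ratio tests below weigh each library equally, so P60 counts more in them. Prpf3, Prpf4, Prpf8, Snrnp200 and Rp9 were lower in mature retina, 5 of 7, and none was higher. Of all 31760 features tested, 40.4% were lower and 35% higher, and of those with a mean of at least 10 CPM, 46.3% were lower. The median log2 difference was -0.41 over the 7 members, -0.06 over all features and -0.11 over features with a mean of at least 10 CPM.

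Rp9 and Prpf4 had the lowest mature levels relative to embryonic ones. Rp9 went from 13.4 ± 0.863 CPM (SD, n = 6) to 7.92 ± 1.80 CPM (SD, n = 14), a log2 difference of -0.72 ± 0.12 (SE, adjusted p = 3.4e-06). Prpf4 went from 29.7 ± 2.75 to 18.2 ± 1.72 CPM, a difference of -0.68 ± 0.08 (adjusted p = 4.9e-09). These were the 2 members whose embryonic and mature libraries did not overlap, against 23% of all features in this direction. Prpf3 went from 44.9 ± 3.82 to 33.7 ± 6.66 CPM (-0.46 ± 0.08, adjusted p = 3e-06). Snrnp200 went from 212 ± 20.8 to 163 ± 22.8 CPM (-0.41 ± 0.04, adjusted p = 8.1e-10), and Prpf8 from 369 ± 37.2 to 286 ± 35.4 CPM (-0.39 ± 0.04, adjusted p = 6.6e-10). For these 3 genes the highest mature libraries reached into the embryonic range. None of the 7 reached an absolute log2 difference of 1, which 31% of all features did with a call.

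Prpf6 and Prpf31 were not called. Prpf6 was at 65.6 ± 3.17 CPM in embryonic and 63.0 ± 14.2 CPM in mature libraries (-0.13 ± 0.08, adjusted p = 0.14), and Prpf31 at 39.8 ± 3.43 and 37.0 ± 6.80 CPM (-0.15 ± 0.09, adjusted p = 0.11). Both calls depended on the P60 libraries. Without P60, Prpf6 (-0.27, adjusted p = 0.00017) and Prpf31 (-0.26, adjusted p = 0.0023) were lower in mature retina. Without P60 replicates 3, 4 and 5 alone, the differences were -0.20 (adjusted p = 0.0053) and -0.21 (adjusted p = 0.011), and without replicates 3 to 6 they were -0.23 (adjusted p = 0.00091) and -0.24 (adjusted p = 0.0046). Prpf31 also passed without P15 replicate 4 (-0.18, adjusted p = 0.045).

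Of the steps between neighboring ages, the one from P1 to P6 had the most calls. There 5 of the 7 (Prpf8, Snrnp200, Prpf3, Prpf4 and Rp9) were lower, against 20.4% of all features. The median difference at this step was -0.36 over the members and -0.03 over all features. This is also the step at which summed progenitor markers went from 3314 to 3783 CPM down to 91.0 to 120 CPM and those of Müller glia from 884 to 922 down to 595 to 623 CPM. The Müller glia sum was already at 828 to 846 CPM at E14, and at 1282 to 1437 CPM at P15. Of its 6 genes, 5 were above 1 CPM on average at P1 and 6 at P6. Whether the number of these cells changed was not tested. Summed rod markers went from 114 to 121 up to 2776 to 3596 CPM, and those of blood from 10.9 to 15.5 up to 39.8 to 50.6 CPM. Per the methods, libraries also went from mixed sexes to males at this step, and the part of sex was not tested. Prpf6 (0.02 ± 0.12 SE, adjusted p = 0.91) and Prpf31 (-0.19 ± 0.13, adjusted p = 0.27) were not called there. Between P6 and P15, 3 of 7 were lower (Prpf8, Snrnp200 and Prpf6), against 19% of all features. Between E14 and E17, Prpf8 and Snrnp200 were lower, 2 of 7, against 3.02%. Between E17 and P1, limma called 0 of 7, against 5.77% of features higher and 3.43% lower, and 0 of 7 had an unadjusted p under 0.05.

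Later steps went the other way. Between P15 and P28, 2 of 7 (Prpf8 and Snrnp200) were higher, against 1.14% of all features. These 2, the most abundant members, had the smallest SE of the 7 at this step (0.06, against 0.11 to 0.17). The same 2 had the smallest SE between E14 and E17. No share among abundant features alone was computed for these steps. Between P28 and P60, 1 of 7 (Prpf6) was higher, against 4.8%, and Prpf3, Prpf8 and Prpf31 had adjusted p from 0.11 to 0.12 with differences of 0.24, 0.13 and 0.26. The balance of calls at this last step depends on scaling: 1524 features were called higher and 2576 lower with CPM as deposited, and 2093 higher and 1966 lower after median-of-ratios scaling.

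**Figure D3:**
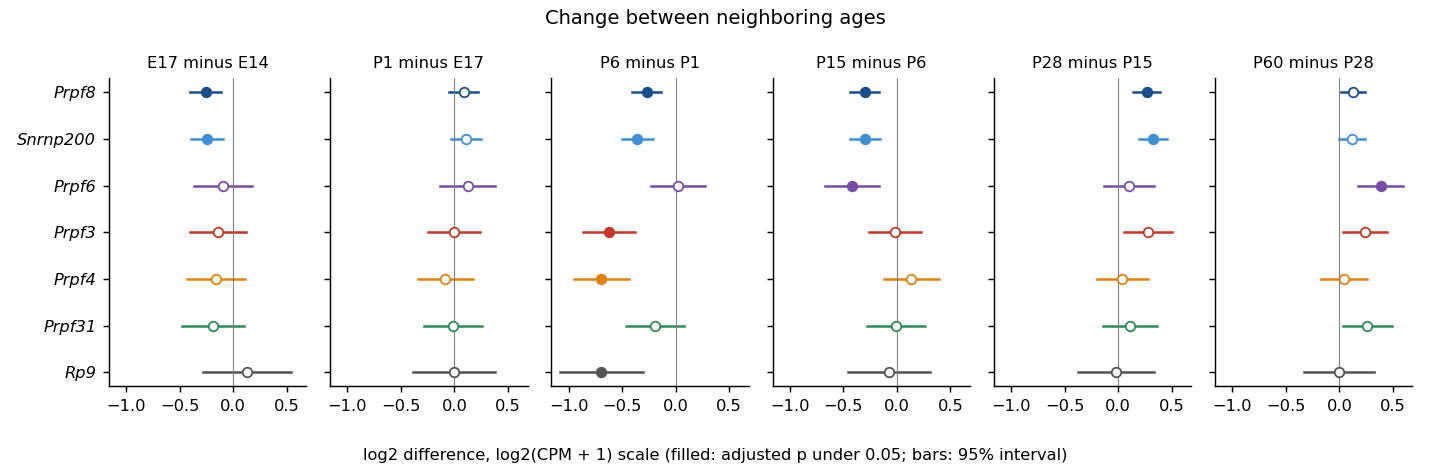
Log2 difference between neighboring ages (x axis, log2(CPM + 1) scale) for the 7 genes (rows) at the 6 steps (panels). Bars are 95% confidence intervals, and filled points were called at an adjusted p under 0.05 by limma. Between P1 and P6, 5 genes were called lower, from -0.27 for Prpf8 to -0.69 for Prpf4 and Rp9.

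Since several members were lowest at P15, P60 was also set against P15, a contrast added after these levels were seen, so that it describes the course and is no independent evidence of a rise. Prpf3 (0.52 ± 0.10 SE, adjusted p = 0.0004), Prpf6 (0.49 ± 0.11, adjusted p = 0.0011), Snrnp200 (0.45 ± 0.06, adjusted p = 2.2e-06), Prpf8 (0.40 ± 0.06, adjusted p = 5.7e-06) and Prpf31 (0.37 ± 0.11, adjusted p = 0.014) were higher at P60. That is 5 of 7, against 10.1% of all features, or 3215 higher and 5715 lower (4360 and 4530 after median-of-ratios scaling). Prpf4 (0.08 ± 0.11, adjusted p = 0.59) and Rp9 (-0.02 ± 0.16, adjusted p = 0.93) were not called. All P60 libraries were above all P15 libraries for Prpf8, Snrnp200 and Prpf3, 3 of 7, against 4.16% of all features. Without P60 replicates 3, 4 and 5, these 3 genes were still called, while Prpf6 (0.27, adjusted p = 0.057) and Prpf31 (0.19, adjusted p = 0.31) were not. The same held without replicates 3 to 6 (adjusted p = 0.29 for Prpf6 and 0.62 for Prpf31). The call of Prpf31 was also lost without P15 replicate 1 or 2 (adjusted p = 0.058 each) and with only P15 and P60 in the fit (adjusted p = 0.094).

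Ratios within a library do not depend on how the library was scaled, so they were used to compare partners. The ratio of Prpf8 to Snrnp200, scaffold to helicase, ran from 1.63 to 1.98 over all 27 libraries. Its mean was 1.74 ± 0.037 (SD, n = 3) at E14, 1.81 ± 0.166 (n = 4) at P15 and 1.75 ± 0.085 (n = 6) at P60. The log2 ratio differed by 0.02 between mature and embryonic libraries (exact two-sided permutation test, p = 0.62, adjusted over 3 ratios 0.62), less than the SD of the mature libraries (0.09).

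The ratio of Prpf3 to Prpf4, the pair that bind each other, had an embryonic mean of 1.52 and a mature mean of 1.87. It was 1.51 ± 0.086 (SD, n = 3) at E14, 1.53 ± 0.078 (n = 3) at E17, 1.64 ± 0.329 (n = 4) at P1, 1.72 ± 0.205 (n = 3) at P6, 1.53 ± 0.118 (n = 4) at P15, 1.83 ± 0.250 (n = 4) at P28 and 2.12 ± 0.4997 (n = 6) at P60. The log2 difference of 0.27 had an exact permutation p of 0.019 and missed the threshold after adjustment over the 3 ratios (0.058). It passed without P15 replicate 1, P15 replicate 4 or P28 replicate 1 (0.29, 0.31 and 0.30, exact permutation, adjusted p = 0.049, 0.0097 and 0.036). These were 3 of 20 libraries left out in turn, over which the adjusted p ran from 0.0097 to 0.14. The ratio of Prpf31 to Prpf6, the contact between U4 and U5, was 0.608 in embryonic and 0.593 in mature libraries (log2 difference -0.04, exact permutation p = 0.52, adjusted 0.62). It was lowest at P6, at 0.465 ± 0.108 (SD, n = 3), where a single library was at 0.349.

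**Figure D4:**
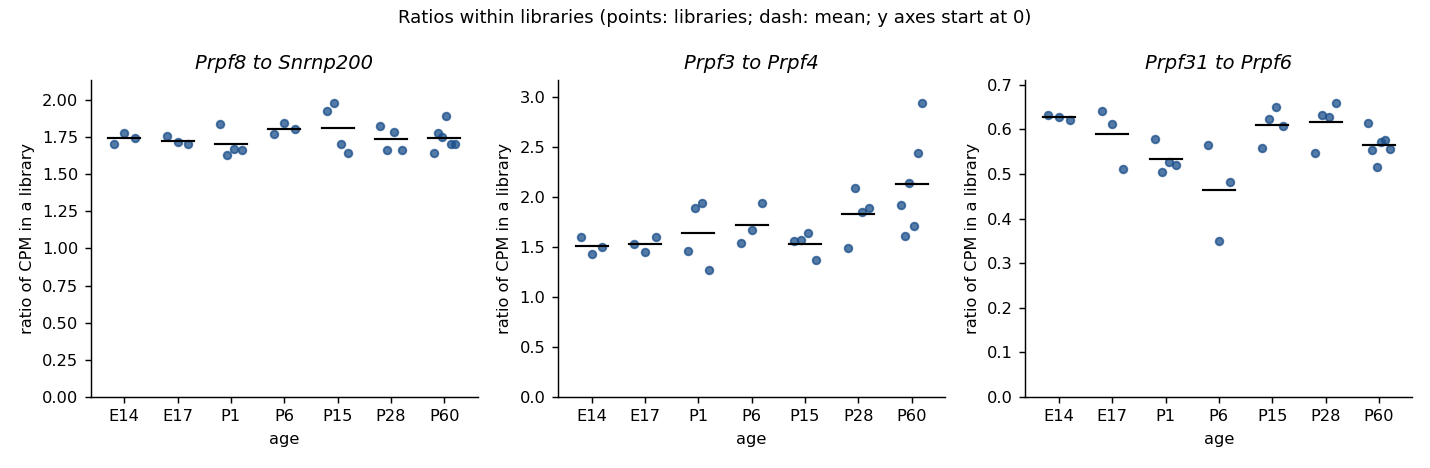
Ratio of CPM values within each library (y axis, linear, starting at 0) for 3 pairs of members by age; points are libraries and dashes are means of an age. Prpf8 to Snrnp200 stayed between 1.63 and 1.98, and Prpf3 to Prpf4 reached up to 2.94 at P60.

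The other protein genes of the tri-snRNP mostly had lower levels in mature retina, 7 of 10, with a median difference of -0.62. In the U5 particle, Eftud2, the GTPase that acts next to PRPF8, went from 109 ± 9.61 to 53.6 ± 6.46 CPM (SD, n = 6 and 14; -1.04 ± 0.05 SE, adjusted p = 1.7e-17). Snrnp40, a WD-repeat protein of U5, differed by -1.26 (adjusted p = 1.2e-12) and Txnl4a, the small thioredoxin-like subunit, by -0.32 (adjusted p = 2.5e-05). Ddx23, the helicase that acts as U1 leaves the splice site, was not called (0.12, adjusted p = 0.24). In U4/U6, Ppih, the cyclophilin that binds PRPF4, differed by -1.10 (adjusted p = 4.1e-10) and Snu13 (listed as Nhp2l1), which binds U4 RNA, by -0.84 (adjusted p = 3.2e-11). Of the proteins specific to the assembled particle, Usp39 (-1.18, adjusted p = 5.6e-14) and Rbm42 (-0.40, adjusted p = 0.0014) were lower, Snrnp27 was higher (0.29, adjusted p = 0.012) and Sart1 was not called (0.09, adjusted p = 0.39). Eftud2, a direct neighbor of PRPF8 and SNRNP200, had a difference of -1.04, beside -0.39 and -0.41 for their own genes.

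Among 6 genes for assembly and recycling of the particle, 4 were lower, led by Sart3 (-0.79, adjusted p = 2e-09), which brings U4 and U6 back together, and 2 were not called. In this list, 1 gene was called higher with median-of-ratios scaling, by edgeR, by DESeq2 and without E17 replicate 1. All 7 genes of the Sm core, the ring of proteins on U1, U2, U4 and U5 RNA, were lower (median -1.18), most of all Snrpe (-1.68, adjusted p = 1.5e-14). All 7 genes of the LSm ring on U6 RNA were lower (median -0.996), most of all Lsm2 (-1.51, adjusted p = 3.3e-12). Of 15 genes for proteins of U1 and U2, 14 were lower (median -0.78). Snrpb2 of U2 went from 46.1 ± 6.53 to 9.54 ± 1.59 CPM (-2.13, adjusted p = 4.8e-21). Snrnp70 of U1 was the exception, from 191 ± 11.1 to 281 ± 36.8 CPM (0.53, adjusted p = 3.7e-08). In the Prp19 complex, which stabilizes the activated spliceosome, 8 of 11 were lower and 2 higher (median -0.27), with Prpf19 (-0.79, adjusted p = 2e-09) and Isy1 (0.31, adjusted p = 0.00015) at the ends. The count higher was 1 with only the ages compared in the fit, without P60, and without P60 replicates 3, 4 and 5 or 3 to 6. It was also 1 without any of E14 replicate 2, E17 replicate 1, P15 replicate 4 or P28 replicate 4. Of 2 further splicing genes of human retinal disease, Cwc27 was lower (-0.32, adjusted p = 0.0039) and Dhx38, a helicase gene, was not called (-0.17, adjusted p = 0.11). Both were lower without P60, without P60 replicates 3, 4 and 5 or 3 to 6, and without P15 replicate 4 or P28 replicate 4.

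Over these 58 genes, 48 were lower, 4 higher and 6 not called, against 40.4% of all features lower and 46.3% of those with a mean of at least 10 CPM. Their median was -0.71, beside -0.41 for the 7 members and -0.06 for all features. This sets the lists side by side and tests no difference between them. Between P1 and P6, 6 of 7 Sm genes, 11 of 15 genes of U1 and U2 and 5 of 10 other tri-snRNP genes were lower. Between P6 and P15, these counts were 4 of 7, 9 of 15 (1 higher) and 4 of 10. Of all features, 20.4% and then 19% were lower at these steps. Median differences were -0.47 and then -0.48 for the Sm core, and -0.42 and then -0.47 for U1 and U2. For the other tri-snRNP genes they were -0.44 and then -0.32. In the Prp19 complex, limma called 0 of 11 genes between P1 and P6, and 6 of 11 were lower between P6 and P15. Against P15, those higher at P60 were 2 of 10 other tri-snRNP genes, 2 of 6 assembly genes, 1 of 7 Sm genes, 0 of 7 LSm genes (1 lower), 2 of 15 genes of U1 and U2 (2 lower), 2 of 11 of the Prp19 complex and 1 of 2 further disease genes, against 10.1% of all features.

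**Figure D5:**
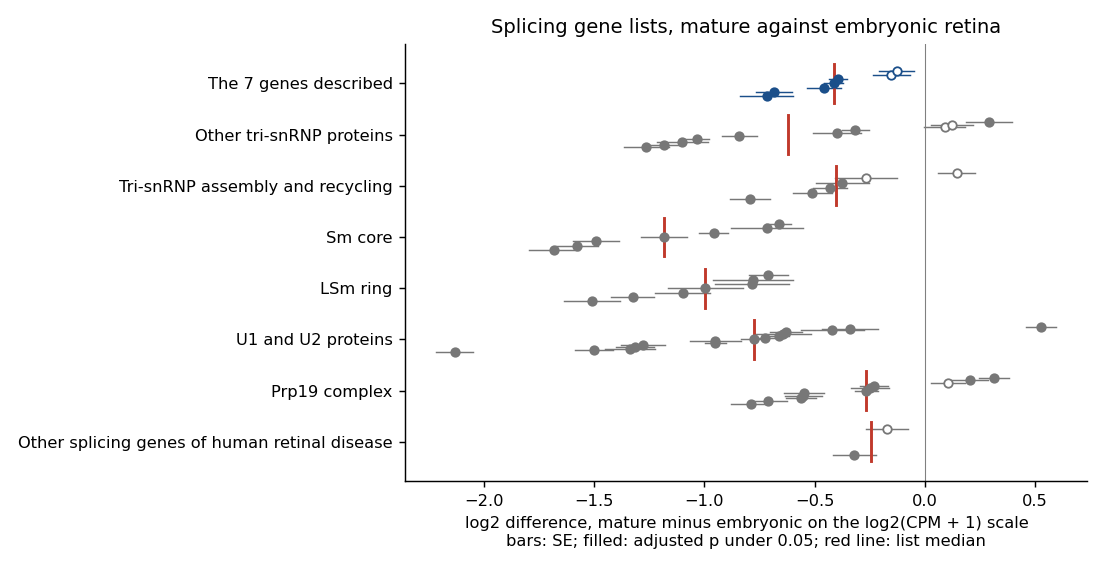
Log2 difference (mature minus embryonic, log2(CPM + 1) scale, x axis) for the 7 genes (blue) and 58 other splicing genes by list (gray). Bars are SE, filled points were called at an adjusted p under 0.05 by limma, and red lines are list medians. The medians ran from -0.25 for the 2 further disease genes to -1.18 for the Sm core, and the 7 genes described had -0.41.

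Outside the members, the genes with the most similar course over the 27 libraries were sought by Pearson's r on log2(CPM + 1). The search covered 10992 features with a Gene ID and a mean of at least 10 CPM. The members were left out of it, so they could not be matched with each other. Libraries of an age share that age, so r describes the shape of the course. For Prpf8 they were Gart (0.918) and Eif4b (0.905), and for Snrnp200 Utp20 (0.908) and Gart (0.905), so the scaffold and helicase genes had Gart in common. They were Pprc1 (0.906) and Baz1b (0.892) for Prpf3, Aldh1a1 (0.931) and Idi1 (0.930) for Prpf4, and Setd1b (0.886) and Plxnb1 (0.885) for Prpf6. For Prpf31 they were Msto1 (0.862) and Zmat2 (0.849), and for Rp9 Fbxo45 (0.899) and Smc1a (0.897).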

How the data were processed

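Per the labels and the study's methods, total RNA of dissected retina was made into libraries with a SMARTer total RNA kit, and reads were aligned to mm10 with STAR. The authors deposited CPM, in which a feature's reads are scaled to all reads of the library. The methods name STAR for the CPM step as well. Which annotation and strand setting the table used is not given in the sources used here. Of 38168 features, 14905 have no Gene ID, and 926 symbols are repeated; for a member the entry of highest mean was taken.

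In each library, 1 read is worth 0.0882 to 0.141 CPM. With a tolerance of 0.05, all values (100%) came out whole, giving 7076646 to 11330762 reads per library (median 7968785). In E14 replicate 1 this step lies so near a round decimal that an automatic test cannot judge it. A count of 0 allows up to 3 reads (0.424 CPM in the shallowest library), for counting error only.

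CPM as deposited was tested as log2(CPM + 1) by limma 3.58.1 with a mean-variance trend in R 4.3.3, over the 31760 features that reached 1 CPM in 3 libraries or more. Age (7 levels) was the factor over all 27 libraries, contrasts were two-sided, and p-values were adjusted by Benjamini-Hochberg over all features and called under 0.05. The fit uses a single spread per feature for all ages. Some members varied more between P60 libraries (Prpf6, SD 14.1 CPM, against 2.16 CPM at P28). For them, p-values of contrasts with P60 may be too small. Fold changes on this scale understate those of low genes. Ratios were compared by exact permutation tests in scipy 1.17.1. The fits were tested on simulated data with few changed features and the same spread in all libraries. That setting does not cover the many changed features, or the wider spread of some genes at P60, in these data. Replicates are libraries; whether pools shared animals is not given, so p-values measure the spread between libraries.

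Alternatives were a pseudocount of 0.1, other filters, median-of-ratios scaling, edgeR 4.0.16 and DESeq2 1.42.0 on recovered reads, a block for replicate number, only the ages compared, and each library left out. Leaving out P60 replicates 3, 4 and 5 or 3 to 6, leaving out E14 replicate 1 in edgeR, and the contrast of P60 with P15 were chosen after the data were seen. The members and gene lists were chosen with earlier results of these data known. The 7 members were named, with all other tri-snRNP genes, both further disease genes and, from each other list, the called genes with the largest rise and fall. The 2 features outside the members that were most correlated with each member were also named. A list of spliceosomal RNAs, by symbols with Rnu and a digit, found 1 symbol, which is not spliceosomal, and was not used. A further retina marker is not reported here. Same-numbered libraries did not deviate together, so numbers were not taken to pair samples.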

Additional observations from a re-analysis of the deposited data

Results flagged for a closer look

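For each gene and each age with 4 or more libraries, the highest and lowest library were compared with the rest by Dixon's criterion, in 28 groups. Chance alone marks about 1 group in 20, and 2 were marked. Prpf3 was at 35.0 CPM in P28 replicate 2, with the other P28 libraries at 31.8 to 32.0 CPM. Prpf4 was at 21.5 CPM in P28 replicate 1, with the other P28 libraries at 16.7 to 17.3 CPM. These are different libraries. The step of each gene to or from P28 was not called with all libraries in the fit. With P28 replicate 1 left out, the ratio of Prpf3 to Prpf4 differed between mature and embryonic libraries (0.30 on the log2 scale, exact permutation, adjusted p = 0.036).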

How the results depend on the processing

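Of 2191 differences of a member under an alternative, 2147 kept their direction where called and their side of the threshold, 28 lost a call and 16 gained one. None of the called differences changed direction. The number of members called is given by comparison. Lower in mature retina were 0 with an absolute log2 difference of at least 1 and 5 to 6 without 1 library. All 7 were lower there without P60 and without P60 replicates 3, 4 and 5 or 3 to 6. Lower at E17 than at E14 were 0 by edgeR without E14 replicate 1 and 0 to 2 without 1 library. Lower at P15 than at P6 were 2 to 3 without 1 library. Higher at P28 than at P15 were 1 to 2 without 1 library. Higher at P60 than at P28, where the main count was 1, were 2 with median-of-ratios scaling, 2 by edgeR, 4 by DESeq2 (Prpf3, Prpf6, Prpf8 and Prpf31), 0 with the replicate block, 0 with only these ages in the fit, 0 without P60 replicates 3, 4 and 5 or 3 to 6, and 0 to 3 without 1 library (0 without P28 replicate 2 or 3, and 3 without P60 replicate 2). Higher at P60 than at P15 were 3 without P60 replicates 3, 4 and 5, 3 without replicates 3 to 6 and 4 to 5 without 1 library. Of the 58 other splicing genes, those higher in mature retina were 7 by edgeR, 2 with the replicate block and 3 to 4 without 1 library, and 47 to 50 were lower without 1 library. The log2 ratio of Prpf3 to Prpf4 differed by 0.22 to 0.31 without 1 library (exact permutation, adjusted p from 0.0097 to 0.14). The cause of these changes was not tested.

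Replicate numbers did not pair the libraries: the deviations of 69 same-numbered pairs correlated with a median r of -0.0018 (240 other pairs, 0.0042), and 7 of 27 libraries correlated best with their own number. With the replicate block, Prpf31 was called lower in mature retina (-0.21, adjusted p = 0.037), so that 6 members were, Prpf6 was not called between P28 and P60 (0.36, adjusted p = 0.071), and the ratio of Prpf3 to Prpf4 passed by limma (0.23, adjusted p = 0.027). It did not pass when labels were permuted exactly within each replicate number, a test added after seeing the data (0.21, adjusted p = 0.096). Only the 3 replicate numbers found among embryonic libraries entered that test. Mature libraries with higher numbers, at P15, P28 and P60, were left out of it. The block changed the call of none of the other members or ratios. Of the other splicing genes named, Snrnp27 lost its call, since 0 of 10 other tri-snRNP genes were higher with the block, and both further disease genes were lower (2 of 2), while 1 of 11 Prp19 genes was higher. Depth limits Rp9 most, at 42 to 166 reads in a library.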
